A study of Mus musculus with 24 samples.

Results

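Cells of the mouse mammary carcinoma line 4T1-T, labelled tumor, that carried the hairpin shAsns-2, directed at Asns, were compared with tumor cells that carried the control hairpin shRenilla, named for the Renilla luciferase gene that mouse cells lack. All RNA-seq libraries titled tumor shAsns-2 (A to D) and tumor shRenilla (A to D) were taken, which makes 8 of the 24 libraries of the study, with 4 per hairpin, and all genes were examined. Every library came from shRNA-infected cells that had been selected with 6-thioguanine (6TG) and cultured in DMEM to which non-essential amino acids were added, and total RNA was the starting material. The other 16 libraries hold cells labelled lung with shAsns-2 (4) or shRenilla (4), and cells from both sites labelled shAsns-1 (4 per site). The 4T1 line resists 6-thioguanine, so that this drug keeps tumor cells and kills host cells from the same tissue. The labels do not say whether a hairpin line was 1 clone or a pool, nor whether A to D came from different mice or cultures. A p-value here therefore reflects only spread between libraries, which may be technical. In the main fit that spread was estimated over all 24 libraries of the study, not over the 8 compared alone.

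Asparagine synthetase, the product of Asns, transfers nitrogen from glutamine to aspartate to make asparagine. When amino acids run short, the kinase GCN2 phosphorylates the initiation factor eIF2α and the transcription factor ATF4 accumulates. ATF4 binds amino acid response elements and raises Asns along with genes of amino acid uptake, serine synthesis and tRNA charging. DMEM itself contains no asparagine, whereas the non-essential amino acid supplement does. In breast cancer cells, asparagine supply has been tied to invasive behaviour and to metastasis.

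4 promoters are shown as examples, and each holds the motif marked in it. Asns is the target itself, and Car9 has the lowest adjusted p of the higher genes. Ddit4 and Chac1 are members of the hypoxia and ATF4 target lists described further on, and neither passed the threshold used below. Each runs 5′ to 3′ on the gene's strand, from 250 bases before to 50 bases after the start that RefSeq gives on GRCm38.p6. Capitals mark the core of the amino acid response element (TGATGNAA) in Asns and Chac1 and the core of the hypoxia response element (ACGTG) in Car9 and Ddit4, each found by a search of both strands. In Car9 and Chac1 the motif lies on the opposite strand, so its reverse complement is in capitals. Among tested list members with a listed promoter, TGATGNAA lay in 10 of 31 ATF4 targets and ACGTG in 16 of 25 hypoxia targets.
Asns, chr6:7693160-7693459, minus strand: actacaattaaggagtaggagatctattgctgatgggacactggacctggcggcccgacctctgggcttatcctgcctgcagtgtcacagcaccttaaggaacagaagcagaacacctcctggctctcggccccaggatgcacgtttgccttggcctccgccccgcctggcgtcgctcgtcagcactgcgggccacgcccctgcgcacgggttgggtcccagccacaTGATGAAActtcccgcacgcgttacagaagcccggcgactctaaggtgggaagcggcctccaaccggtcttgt
Car9, chr4:43506776-43507075, plus strand: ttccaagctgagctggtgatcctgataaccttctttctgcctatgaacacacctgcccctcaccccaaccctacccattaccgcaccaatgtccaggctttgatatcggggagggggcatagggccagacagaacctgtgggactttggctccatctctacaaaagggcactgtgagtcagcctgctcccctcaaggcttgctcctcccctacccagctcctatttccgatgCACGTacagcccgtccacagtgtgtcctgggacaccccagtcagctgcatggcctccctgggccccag
Ddit4, chr10:59951721-59952020, minus strand: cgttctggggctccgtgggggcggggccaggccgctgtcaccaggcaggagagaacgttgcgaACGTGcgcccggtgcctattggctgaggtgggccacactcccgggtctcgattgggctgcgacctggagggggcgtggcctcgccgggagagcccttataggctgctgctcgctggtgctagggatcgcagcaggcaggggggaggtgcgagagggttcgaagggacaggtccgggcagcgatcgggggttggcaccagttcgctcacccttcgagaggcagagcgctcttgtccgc
Chac1, chr2:119350992-119351291, plus strand: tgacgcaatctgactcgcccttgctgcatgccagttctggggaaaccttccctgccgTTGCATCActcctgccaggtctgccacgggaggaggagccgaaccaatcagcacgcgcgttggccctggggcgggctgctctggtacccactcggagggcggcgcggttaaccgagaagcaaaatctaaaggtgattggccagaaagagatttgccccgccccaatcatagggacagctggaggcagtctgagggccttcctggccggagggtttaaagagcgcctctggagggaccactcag
The capital run begins at position -23 from the gene start in Asns, -18 in Car9, -187 in Ddit4 and -193 in Chac1. TGATGNAA was present in 3.97% of all 32851 promoters of this length in the RefSeq table, and ACGTG in 19.6%. These shares are per promoter, whereas the list counts above are per gene, with a match in any of its promoters. Counted per gene, TGATGNAA lay in 2.77% and ACGTG in 29.6% of the 9309 tested genes with a listed promoter.

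Epithelial markers were present with both hairpins. The keratin genes Krt8 and Krt18, the adhesion gene Epcam and the E-cadherin gene Cdh1 were each at 60.1 CPM (counts per 1e6 counts of the normalised library size) or more in all 8 libraries. Of the 11 epithelial markers, 10 passed the filter on low counts. Krt5, a basal keratin, had no read in any of them. The summed level of the epithelial markers was 969 to 1117 CPM in shAsns-2 libraries and 796 to 957 CPM in shRenilla libraries. Markers of T cells, B cells, lung alveolar and airway cells, endothelium and adipocytes summed to at most 1.20 CPM in any of the 8. Neutrophil markers summed to 2.27 to 3.99 CPM in shAsns-2 and 2.71 to 4.75 CPM in shRenilla libraries, from Cxcr2 and S100a8, with S100a9 and Elane at 0. The surfactant genes Sftpc, Sftpb and Sftpa1 and the T cell gene Cd8a were at 0. Fibroblast markers summed to 19.0 to 23.3 CPM in shAsns-2 and 17.5 to 21.1 CPM in shRenilla libraries, mostly from Pdgfra and Postn. Macrophage markers summed to 23.4 to 27.4 CPM in shAsns-2 and 22.9 to 28.7 CPM in shRenilla libraries, mostly from Cd14 and Mrc1, with C1qb at 0. These are bulk samples, so fewer cells of a type and less RNA per cell cannot be told apart.

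Depth was uneven in the shAsns-2 group. Its libraries A to D held 8.48, 38.0, 28.7 and 18.4 M counts, against 27.9 to 29.8 M in the 4 shRenilla libraries. No library repeated another: the closest pair of the 8 still differed with a chi-square of 8.48 per degree of freedom. The first principal component of the 8 (33.0% of variance) did not separate the hairpins. It set shAsns-2 D (-40.8) and shRenilla C (-18.0) apart from the other 6, which lay between 0.49 and 20.3. On the second component (19.6%) the hairpins did not overlap, with shAsns-2 libraries at -2.91 to 35.7 (A highest) and shRenilla libraries at -11.5 to -5.66. The third (15.6%) set shAsns-2 B apart (-30.7). CPM values above and below are on TMM-normalised library sizes. A gene was called when its edgeR quasi-likelihood p, adjusted by the Benjamini-Hochberg method over all 12625 genes tested, was under 0.05.

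Asns was lower in every shAsns-2 library than in any shRenilla library. It stood at 48.3, 42.3, 30.4 and 26.2 CPM in shAsns-2 libraries A to D, against 84.6, 84.6, 61.7 and 100.2 CPM in shRenilla libraries A to D. The lowest shRenilla library, C, was still above the highest shAsns-2 library, A. Means were 36.8 ± 10.3 and 82.8 ± 15.9 CPM (SD, n = 4 each), so that 44.1% of the control level remained, and Asns fell (log2 fold change -1.18 ± 0.16 SE, adjusted p = 0.00122). The exact two-sided permutation p was 0.0286, the smallest that 4 against 4 libraries can give. The gene lies on chromosome 6 (7675169 to 7693254, minus strand, GRCm38). With only the compared libraries in the fit the call was narrowly lost (adjusted p = 0.0502).

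The other hairpin label did not follow its target. In tumor libraries labelled shAsns-1, Asns averaged 170.4 ± 17.1 CPM, above every shRenilla library (1.04 ± 0.16, adjusted p = 1.47e-05), in a comparison where 4278 of the 12625 genes were called (33.9%). Which hairpin those libraries and the libraries labelled shRenilla carry was not tested, so every difference here is a difference between labels.

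Few other genes passed the threshold. In all, 8 of 12625 genes were called (0.0634%), 5 higher (0.0396%) and 3 lower (0.0238%) in shAsns-2, and in all 8 the shAsns-2 and shRenilla libraries did not overlap. At an unadjusted p under 0.05 there were 893 genes (7.07%), 508 higher (4.02%) and 385 lower (3.05%). Libraries did not overlap for 420 genes (3.33%), of which 236 were higher (1.87% of all tested) and 184 lower (1.46%). The median log2 fold change of all genes was 0.01.

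Car9 encodes carbonic anhydrase IX, a membrane enzyme that exports acid and is a classic HIF target. It was at 23.7, 58.7, 22.3 and 32.8 CPM in shAsns-2 libraries, against 15.6, 12.6, 15.4 and 10.4 CPM in shRenilla libraries. The B library of shAsns-2 was far above its 3 companions, yet the lowest of those companions still exceeded all controls. Car9 rose 2.57-fold (1.36 ± 0.22, adjusted p = 0.00759), a call that ended with only the compared libraries in the fit (adjusted p = 0.154) or only the tumor libraries (adjusted p = 0.0596).

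Htra3, the gene of a secreted serine protease of the HtrA family, rose at a very low level, with 4, 14, 17 and 12 reads in shAsns-2 libraries A to D and 4, 3, 4 and 2 reads in shRenilla libraries. On the CPM scale this was 0.478, 0.384, 0.589 and 0.607 in shAsns-2, against 0.148, 0.107, 0.133 and 0.0701 in shRenilla (2.11 ± 0.35, adjusted p = 0.00839). Dmp1, an extracellular matrix phosphoprotein gene of bone and dentin, was also low, at 1.31, 1.78, 0.867 and 2.88 CPM in shAsns-2 and 0.668, 0.499, 0.768 and 0.385 CPM in shRenilla libraries. It rose by 1.56 ± 0.30 (adjusted p = 0.0408), and its highest library was shAsns-2 D, without which the adjusted p was 0.202. With counts thinned to the smallest library neither was called (adjusted p = 0.421 for Htra3 and 0.176 for Dmp1).

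1810011O10Rik, which RefSeq lists as Tcim, a small regulator of transcription and Wnt signalling, was at 38.0, 45.7, 30.2 and 38.0 CPM in shAsns-2 libraries and 19.8, 15.1, 18.7 and 22.0 CPM in shRenilla libraries. The gap between the groups was wider than the range within shRenilla, and the gene rose 2.01-fold (1.01 ± 0.18, adjusted p = 0.0164). Cldn9, a tight junction claudin, was at 6.45, 10.1, 8.84 and 8.30 CPM in shAsns-2 libraries and 3.49, 4.35, 2.64 and 2.59 CPM in shRenilla libraries. It rose 2.62-fold (1.39 ± 0.25, adjusted p = 0.0168).

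The other 2 genes that fell were intracellular serpins. Serpinb9, an inhibitor of granzyme B, was at 28.9, 28.8, 28.4 and 23.9 CPM in shAsns-2 libraries and 42.1, 42.6, 35.4 and 47.3 CPM in shRenilla libraries. It fell to 0.657 of the control level (-0.61 ± 0.11, adjusted p = 0.0168). Serpinb6b, a relative in the same cluster on chromosome 13, was at 26.2, 26.9, 26.8 and 23.3 CPM in shAsns-2 libraries and 38.7, 40.1, 31.2 and 49.7 CPM in shRenilla libraries (-0.63 ± 0.12, adjusted p = 0.0408). Its shAsns-2 values lay within 4 CPM of each other while the controls spread widely.

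Of these 8 calls, Asns held in 17 of the 18 alternative analyses, Car9 in 16 and Htra3 in 14. 1810011O10Rik held in 13, Cldn9 in 12, Serpinb9 in 10, Serpinb6b in 7 and Dmp1 in 6. With only the compared libraries in the fit, the called genes were 1810011O10Rik, Cldn9 and Edn1, which the main fit did not call. Asns and Car9 kept the call whichever single library was left out. Htra3 lost it without shRenilla D (adjusted p = 0.0604). 1810011O10Rik lost it without shAsns-2 A or B or shRenilla A or B (0.0525 to 0.128), and Cldn9 without shAsns-2 B or shRenilla A, C or D (0.0588 to 0.132). Serpinb9 lost it without shAsns-2 B or D or shRenilla A, B or D (0.0521 to 0.141). Serpinb6b lost it without any library other than shRenilla C (0.0521 to 0.202), and Dmp1 without any other than shAsns-2 C or shRenilla C (0.0525 to 0.256). The count itself moved with single libraries, to 3 without shAsns-2 B, 4 without shRenilla A, B or D, 5 without shAsns-2 A or D and 12 without shAsns-2 C. Without both libraries set apart by the first principal component, shAsns-2 D and shRenilla C, it was 4, of which 1 was higher and 3 lower.

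**Figure D1:**
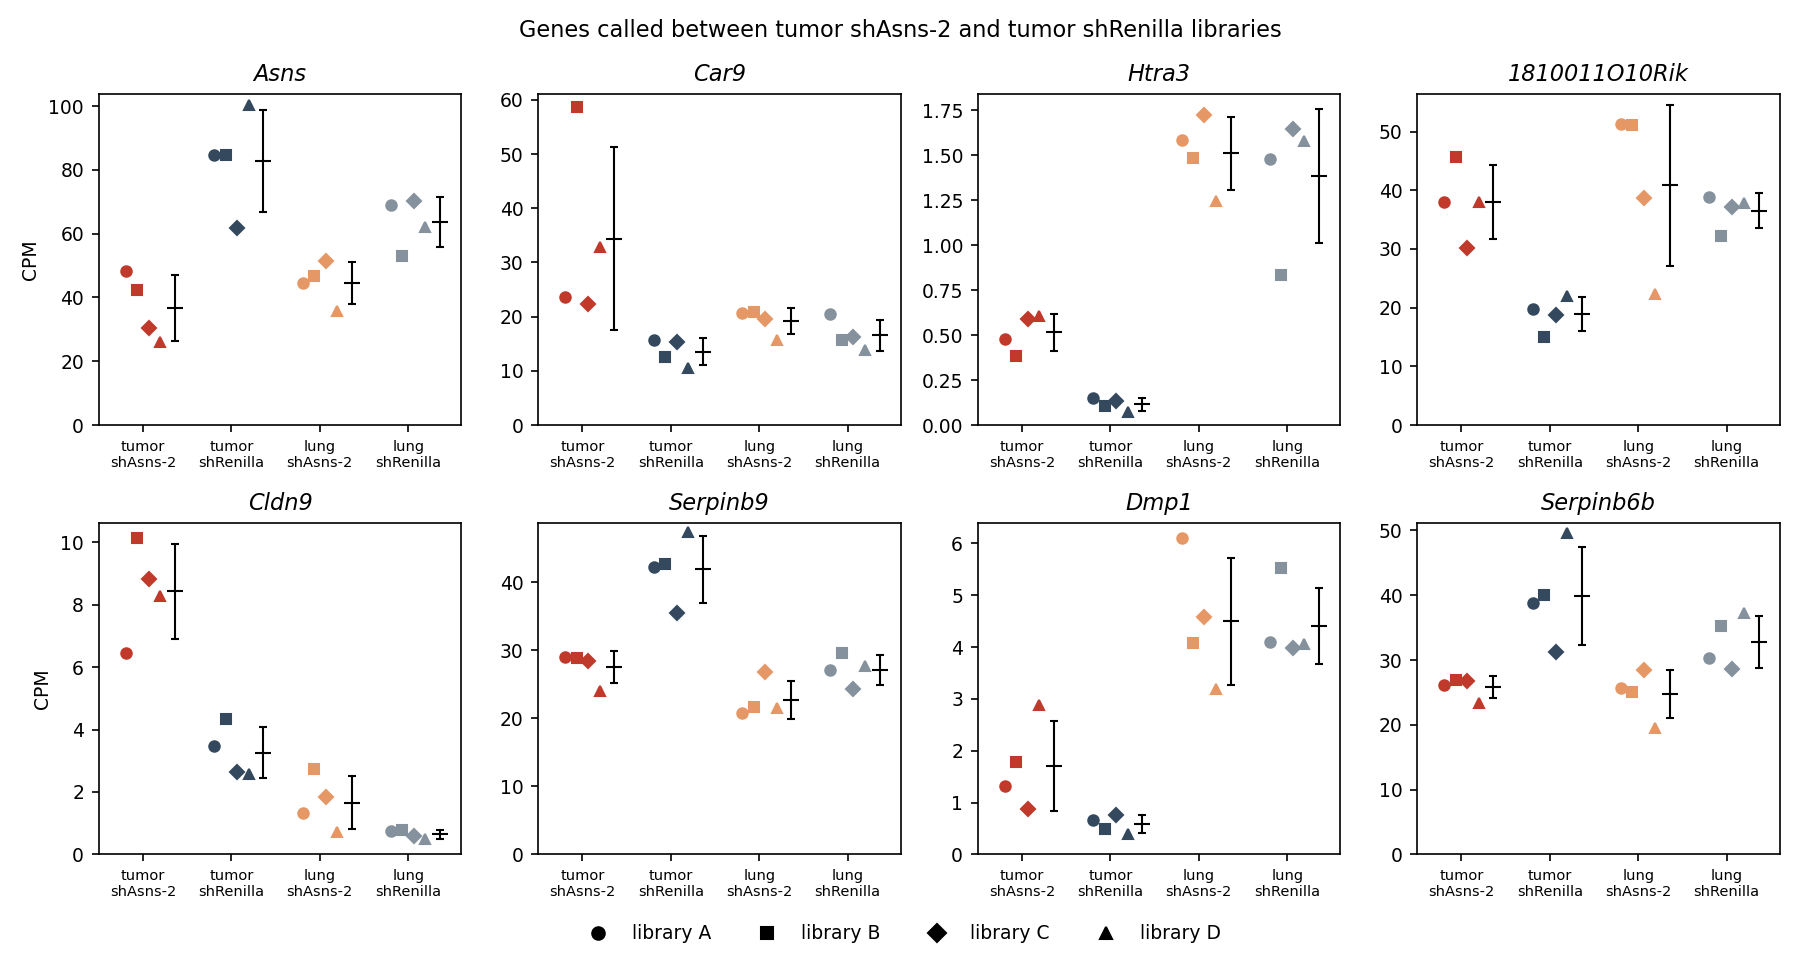
Level in CPM (vertical axes, from 0) of the 8 genes called between tumor shAsns-2 and tumor shRenilla, for tumor shAsns-2, tumor shRenilla, lung shAsns-2 and lung shRenilla libraries; symbols mark libraries A to D, and bars show mean ± SD (n = 4). In the tumor columns no shAsns-2 library overlaps a shRenilla library for any of the 8 genes, and Car9 in shAsns-2 B (58.7 CPM) lies farthest in CPM from the others of its group.

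Uncalled genes were then ranked by p among those with a mean log2 CPM of at least 3 and no overlap between the groups. Both traits were conditions of entry and are not results about these genes. Emp2, a membrane protein gene of epithelia, was at 59.0, 63.3, 44.3 and 52.1 CPM in shAsns-2 libraries and 38.4, 34.7, 39.5 and 38.4 CPM in shRenilla libraries (0.53 ± 0.11, adjusted p = 0.0515). Epcam was at 116, 130.4, 118 and 134 CPM in shAsns-2 libraries and 104, 69.5, 80.2 and 60.1 CPM in shRenilla libraries (0.67 ± 0.14, adjusted p = 0.0792). The 4 shAsns-2 values of Epcam were close together and the controls were not. Next in order were Itgb2, the β2 integrin gene (0.73 ± 0.16, adjusted p = 0.0886), Arpc1a, a subunit of the Arp2/3 actin nucleator (0.39 ± 0.09, adjusted p = 0.102), and Arrdc3, an α-arrestin gene (0.64 ± 0.14, adjusted p = 0.102). Glrp1, Kdm3a, Kcnk2, Olfm1, Csgalnact1, Col18a1 and Sfrp1 completed the 12 of lowest p above the controls within this selection, with log2 fold changes of 0.45 to 0.76. Some uncalled genes outside the selection had a lower p than the last of these, such as Dsc2 (adjusted p = 0.102, against 0.16 for Sfrp1).

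Below the controls, Fez2, an adaptor gene linked to autophagy, led the same selection. It was at 224, 213, 232 and 179 CPM in shAsns-2 libraries and 280.2, 309.9, 257 and 318 CPM in shRenilla libraries (-0.46 ± 0.09, adjusted p = 0.0515). Edn1, the gene of the vasoconstrictor peptide endothelin-1, was at 7.53, 7.68, 10.2 and 9.92 CPM in shAsns-2 libraries and 19.4, 18.3, 17.2 and 15.1 CPM in shRenilla libraries. Its fitted difference of -0.98 ± 0.22 (adjusted p = 0.099) was the widest of the 12 on this side. Edn1 was called in 7 of the 18 alternative analyses, as many as Serpinb6b. Its adjusted p was 0.0484 with only the compared libraries in the edgeR fit and 0.0122 with only the 12 tumor libraries. Rab32, a small GTPase gene of organelle traffic, had tight values on both sides, 15.4, 17.5, 16.3 and 16.2 CPM in shAsns-2 and 22.3, 23.5, 22.0 and 22.0 CPM in shRenilla libraries (-0.45 ± 0.10, adjusted p = 0.0882). Sgk1, a kinase gene downstream of PI3K and glucocorticoids, averaged 273 ± 12.0 and 360.4 ± 43.8 CPM (-0.40 ± 0.10, adjusted p = 0.123). Plek2, Asb4, Ube2g2, Gng11, Arf2, Utp23, Hif1an and Depdc7 followed, at -0.68 to -0.33. Hif1an encodes the asparagine hydroxylase FIH, which restrains HIF activity, and stood at 13.7, 13.8, 14.6 and 13.4 CPM in shAsns-2 and 16.2, 18.3, 17.4 and 17.6 CPM in shRenilla libraries.

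DESeq2 called 50 genes, 40 higher and 10 lower, and leaving 2 divergent lung libraries (shRenilla B and shAsns-2 D) out of the edgeR fit also gave 50, with 36 genes in common. Emp2, Epcam, Itgb2, Arpc1a, Kdm3a, Ndrg1, Ddit4 and Dsc2 among the higher genes and Fez2, Edn1, Rab32 and Sgk1 among the lower were in both sets of called genes.

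Members of 25 gene lists were then counted at an unadjusted p under 0.05 and set beside the background of 4.02% higher and 3.05% lower. The lists are described by counts and medians, with no test of a list. All 25 were drawn up with earlier results of these data known, so none of their counts is independent of the data. Some genes count in several lists, such as Ddit4 and Stc2 among ATF4 and hypoxia targets and Car9 among hypoxia targets and carbonic anhydrases. Small counts moved with single libraries. For example, leaving out 1 of the 8 took the 2 interferon-stimulated genes to 0 to 3 and the 2 NRF2 targets to 0 to 4.

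**Figure D2:**
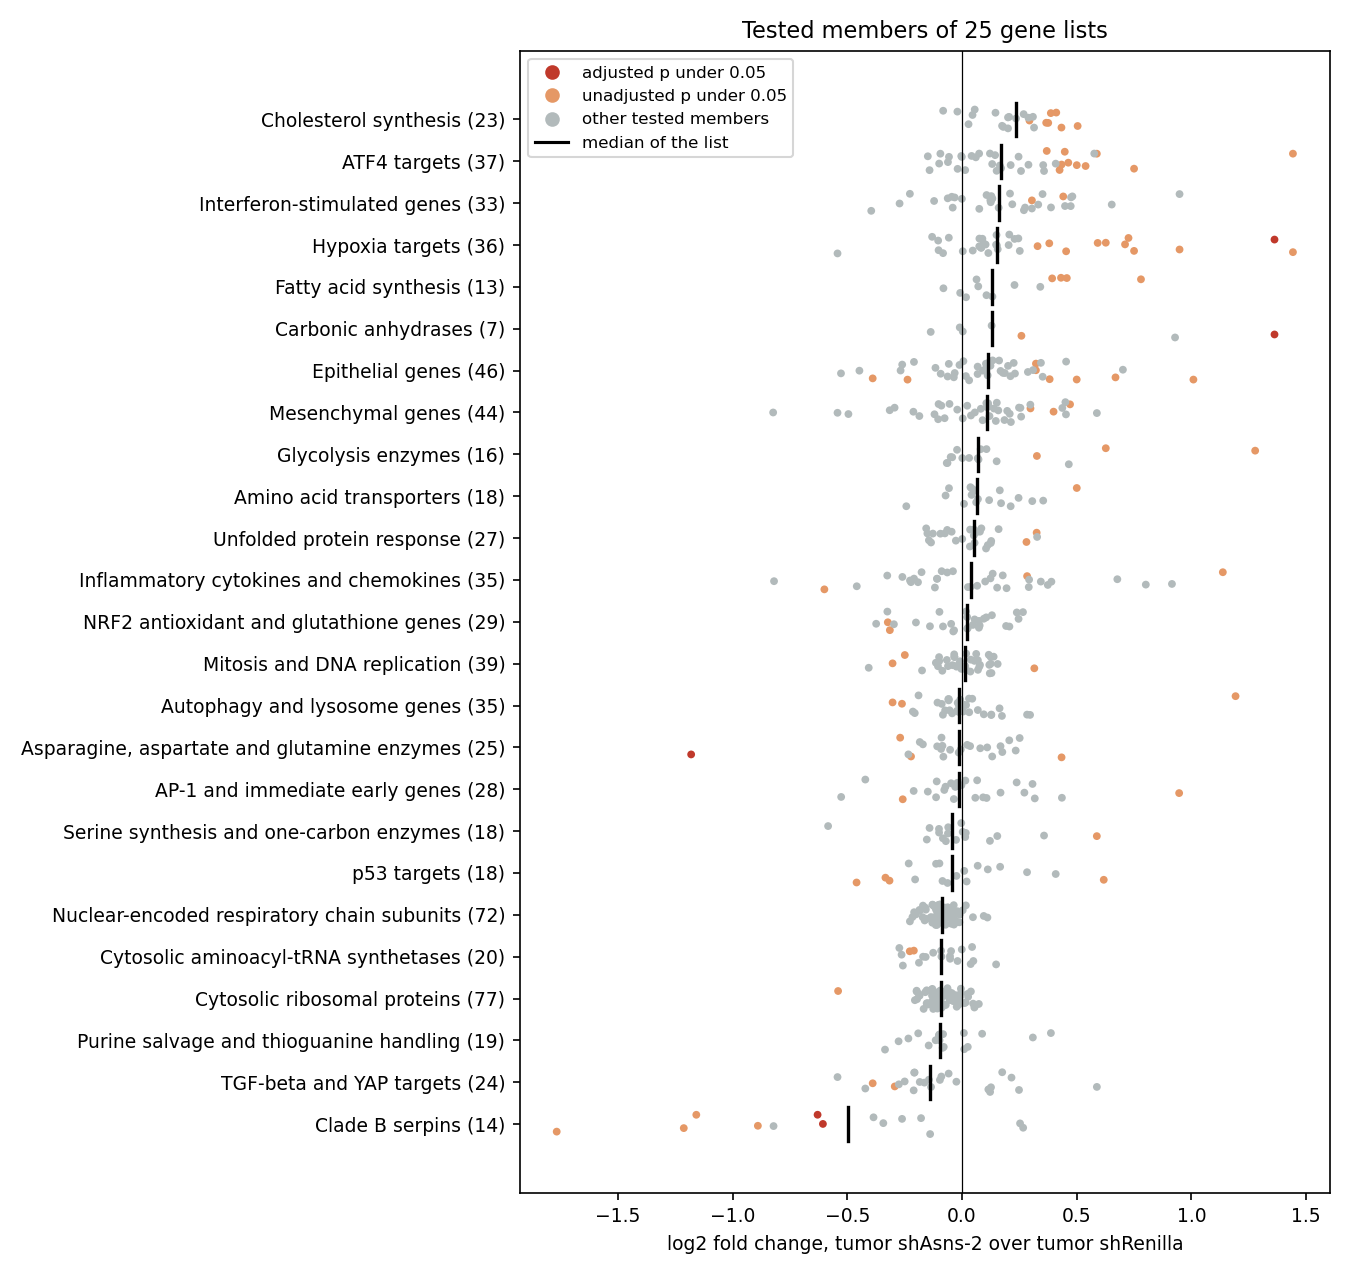
Log2 fold change of tumor shAsns-2 over tumor shRenilla (horizontal axis) for every tested member of 25 gene lists (rows, number of tested members in parentheses), ordered by median (black bar); colour marks adjusted or unadjusted p under 0.05. Cholesterol synthesis (median 0.24), ATF4 targets (0.17), interferon-stimulated genes (0.16) and hypoxia targets (0.15) lie at the top, and clade B serpins (-0.50) at the bottom.

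The enzymes around asparagine, aspartate and glutamine showed little beside Asns itself. Of the 25 members (of 27) that passed the filter on low counts, Asns fell, 3 others had an unadjusted p under 0.05 and 21 did not, and the median log2 fold change was -0.01. Gpt2, the mitochondrial alanine transaminase gene, was at 17.1, 22.9, 14.4 and 17.8 CPM in shAsns-2 libraries and 11.6, 13.2, 15.5 and 13.3 CPM in shRenilla libraries (0.43 ± 0.15, unadjusted p = 0.00705). Ctps, the CTP synthase gene, which uses glutamine, was at -0.22 ± 0.09 (unadjusted p = 0.0254), and Slc25a12, a mitochondrial aspartate-glutamate carrier gene, at -0.27 ± 0.12 (unadjusted p = 0.0306). Glutamine synthetase Glul (0.04), the aspartate transaminases Got1 (-0.11) and Got2 (-0.09) and the asparaginyl-tRNA synthetase Nars (-0.09) had unadjusted p of 0.272 or more. Asnsd1, which shares a domain with asparagine synthetase, was at -0.08, and the asparaginase gene Asrgl1 at -0.18.

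ATF4 targets other than Asns were mostly above the controls. Of 37 tested members (of 40), 10 had an unadjusted p under 0.05 and were higher (27.0%, against 4.02% of all genes), none was lower, and none was called. Altogether 28 were above the controls, with a median log2 fold change of 0.17. Leaving out each library in turn left 7 to 10 such members. The mean log2 CPM of the list was 4.34, 4.48, 4.45 and 4.50 in shAsns-2 libraries A to D and 4.23, 4.25, 4.21 and 4.18 in shRenilla libraries, so the groups did not overlap.

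Among them were stress genes. Ddit4, an inhibitor of mTORC1 that hypoxia also raises, was at 1.43, 5.29, 2.22 and 3.29 CPM in shAsns-2 libraries and 1.59, 0.82, 1.70 and 0.631 CPM in shRenilla libraries (1.44 ± 0.34, adjusted p = 0.12). Its A library of shAsns-2 lay within the control range. Chac1, which degrades glutathione, did not overlap, at 8.25, 11.7, 8.32 and 10.0 CPM in shAsns-2 and 5.97, 6.95, 6.54 and 7.15 CPM in shRenilla libraries (0.54 ± 0.18, unadjusted p = 0.00637). Nupr1, a chromatin-associated stress protein gene, was at 98.0, 113, 117 and 102 CPM in shAsns-2 and 92.5, 68.5, 64.5 and 94.8 CPM in shRenilla libraries (0.43 ± 0.20, unadjusted p = 0.0388). Trib3, a pseudokinase gene in ATF4 feedback, overlapped between the groups (0.45 ± 0.20, unadjusted p = 0.0345), as did the transcription factor gene Cebpb (0.37 ± 0.14, unadjusted p = 0.0153), whose highest library was shAsns-2 D at 37.3 CPM.

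The metabolic members were Aldh1l2, Pck2, Gpt2, Stc2 and Slc6a9. Aldh1l2, a mitochondrial folate enzyme gene, was at 7.53, 9.74, 6.00 and 8.40 CPM in shAsns-2 and 5.19, 5.35, 5.94 and 4.66 CPM in shRenilla libraries (0.59 ± 0.19, unadjusted p = 0.00429). Pck2, the mitochondrial PEP carboxykinase gene, was at 7.41, 12.2, 9.98 and 12.9 CPM in shAsns-2 and 6.97, 7.84, 9.61 and 6.87 CPM in shRenilla libraries (0.46 ± 0.15, unadjusted p = 0.00531). Stc2, a secreted glycoprotein gene, was at 0.75 ± 0.23 (unadjusted p = 0.00259) and the glycine transporter gene Slc6a9 at 0.50 ± 0.24 (unadjusted p = 0.0434).

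For Atf4 mRNA itself and for some classic targets no difference was detected. Atf4 averaged 189 ± 36.1 CPM in shAsns-2 and 191 ± 27.8 CPM in shRenilla libraries (-0.02 ± 0.12, unadjusted p = 0.899). Ddit3, which encodes CHOP, averaged 6.48 ± 0.861 and 6.88 ± 1.70 CPM (-0.09 ± 0.18, unadjusted p = 0.613). ATF4 is controlled largely at translation, which these libraries do not measure. Of the 18 amino acid transporters tested, 15 were above the controls but only Slc6a9 had an unadjusted p under 0.05 (median 0.07). Of 20 cytosolic aminoacyl-tRNA synthetases 4 were above the controls, and Hars and Farsb were lower at an unadjusted p under 0.05 (median -0.09). That count of 2 was 1 without shAsns-2 D or shRenilla D, 4 without shRenilla C and 6 without shAsns-2 C. Serine synthesis and one-carbon enzymes had Aldh1l2 alone among 18 (median -0.04).

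TGATGNAA lay in the promoters of 10 of the 31 ATF4 targets in the RefSeq table (32.3%), against 258 of the 9309 tested genes in it (2.77%). The 10 with the motif had a median log2 fold change of 0.34 and the other 21 of 0.12. At an unadjusted p under 0.05, 4 of the 10 and 5 of the 21 were higher. The largest change, that of Ddit4 (1.44), was among the 21 without the motif. Whether the motif bears on the change was not tested.

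Hypoxia targets had the largest number of higher members. All 36 members were tested, and 11 were higher at an unadjusted p under 0.05 (30.6%, against 4.02% of all genes), among them Car9, which was called, and none was lower. Altogether 30 were above the controls, and the median was 0.15. The mean log2 CPM of the list was 4.48, 4.92, 4.52 and 4.76 in shAsns-2 libraries A to D and 4.51, 4.39, 4.54 and 4.28 in shRenilla libraries, so A and C of shAsns-2 lay among the controls. Without shAsns-2 B the count was 7 in place of 11.

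Ndrg1, a stress-induced gene and long-used hypoxia marker, was at 57.1, 154, 62.8 and 95.1 CPM in shAsns-2 libraries and 38.4, 44.8, 60.9 and 47.9 CPM in shRenilla libraries (0.95 ± 0.23, adjusted p = 0.123). As with Car9 and Ddit4, B was the highest library and D the next. Kdm3a, a HIF-induced histone demethylase gene, was at 55.9, 72.9, 55.3 and 62.8 CPM in shAsns-2 and 43.7, 42.8, 48.0 and 46.1 CPM in shRenilla libraries (0.45 ± 0.11, adjusted p = 0.123), with no overlap. Slc2a1, the glucose transporter gene GLUT1, was at 69.1, 74.7, 59.9 and 111 CPM in shAsns-2 and 56.2, 48.3, 63.9 and 35.5 CPM in shRenilla libraries (0.63 ± 0.16, adjusted p = 0.164). There D was highest and C overlapped the controls.

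Bnip3, a mitophagy receptor gene, was at 175, 354, 148 and 95.9 CPM in shAsns-2 and 140.4, 112, 86.4 and 134 CPM in shRenilla libraries (0.71 ± 0.26, unadjusted p = 0.00978), where shAsns-2 D lay among the controls. Ankrd37 (0.73), Adm, the adrenomedullin gene (0.59), Egln3, a prolyl hydroxylase gene that marks HIF for degradation (0.33), and the MYC antagonist gene Mxi1 (0.38) completed the 11 with Stc2. Hif1a mRNA averaged 514 ± 99.5 CPM in shAsns-2 and 479 ± 66.7 CPM in shRenilla libraries (0.10 ± 0.17, unadjusted p = 0.558). Vegfa, a HIF target for vessel growth, averaged 27.5 ± 5.73 and 23.6 ± 3.86 CPM (0.23 ± 0.20, unadjusted p = 0.27). Of 16 glycolytic genes, Slc2a1, Aldoc (1.28) and Aldoa (0.33) were higher at an unadjusted p under 0.05, and the median was 0.07. ACGTG lay in 16 of the 25 hypoxia targets in the promoter table (64.0%), against 29.6% of tested genes. The 16 with it had a median of 0.22 and the 9 without it of 0.12. At an unadjusted p under 0.05, 7 of the 16 and 3 of the 9 were higher, and a role of the motif was not tested.

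Lipid synthesis genes were also above the controls. In cholesterol synthesis 23 of 25 members were tested, and 7 were higher at an unadjusted p under 0.05 (30.4%), none was lower, and 21 of the 23 had positive log2 fold changes (median 0.24). Among them were the SREBP regulator gene Insig1 (0.50 ± 0.18), the early pathway enzyme gene Hmgcs1 (0.41 ± 0.17), and Lss and Tm7sf2 of the later steps. Hmgcs1 was at 182, 268, 170.4 and 176 CPM in shAsns-2 libraries and 146, 145, 154 and 154 CPM in shRenilla libraries, without overlap and with B far above the other shAsns-2 libraries. Mean log2 CPM of the list was 5.35, 5.65, 5.36 and 5.42 in shAsns-2 libraries A to D and 5.31, 5.23, 5.23 and 5.15 in shRenilla libraries, with B again highest. The count of 7 was 1 without shAsns-2 B, 3 without shRenilla B, 2 without shRenilla D and 4 with only tumor libraries in the fit.

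In fatty acid synthesis 13 of 14 members were tested, and 4 were higher at an unadjusted p under 0.05 and none lower (median 0.13). Fads1, a desaturase gene of polyunsaturated fatty acids, was at 41.2, 47.3, 38.2 and 45.9 CPM in shAsns-2 and 32.7, 30.4, 38.2 and 30.3 CPM in shRenilla libraries (0.39 ± 0.10, adjusted p = 0.194). The stearoyl-CoA desaturase gene Scd2 was at 512, 937, 465 and 672 CPM in shAsns-2 and 349, 353, 466 and 338 CPM in shRenilla libraries (0.78 ± 0.22, adjusted p = 0.266). Scd1 (0.46) and the lipogenic regulator gene Srebf1 (0.43) were the other 2. Without shRenilla B the count was 2.

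Clade B serpins, the intracellular protease inhibitors that include the called Serpinb9 and Serpinb6b, lay below the controls. Of 14 tested members (of 22, the others being too low) 6 were lower at an unadjusted p under 0.05 (42.9%, against 3.05% of all genes), none was higher, and 12 of 14 had negative log2 fold changes (median -0.50). This list was drawn up knowing that 2 of its members had been called, so its count partly repeats them. Serpinb9e (-1.77 ± 0.42, adjusted p = 0.123), Serpinb9g (-1.16 ± 0.40), Serpinb9d (-1.21 ± 0.44) and Serpinb1a (-0.89 ± 0.34) are at most 1.03 CPM on average. Serpinb9e, the largest of them, was counted 1, 8, 6 and 1 times in shAsns-2 libraries and 6, 22, 15 and 23 times in shRenilla libraries. With thinned counts 2 of the list were lower. The abundant members Serpinb6a (-0.14) and Serpinb5, the maspin gene (-0.34), had unadjusted p of 0.167 or more. Serpinb9 and its relatives are near copies of each other, and how the counting split shared reads is not given, so the values of single members are uncertain.

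**Figure D3:**
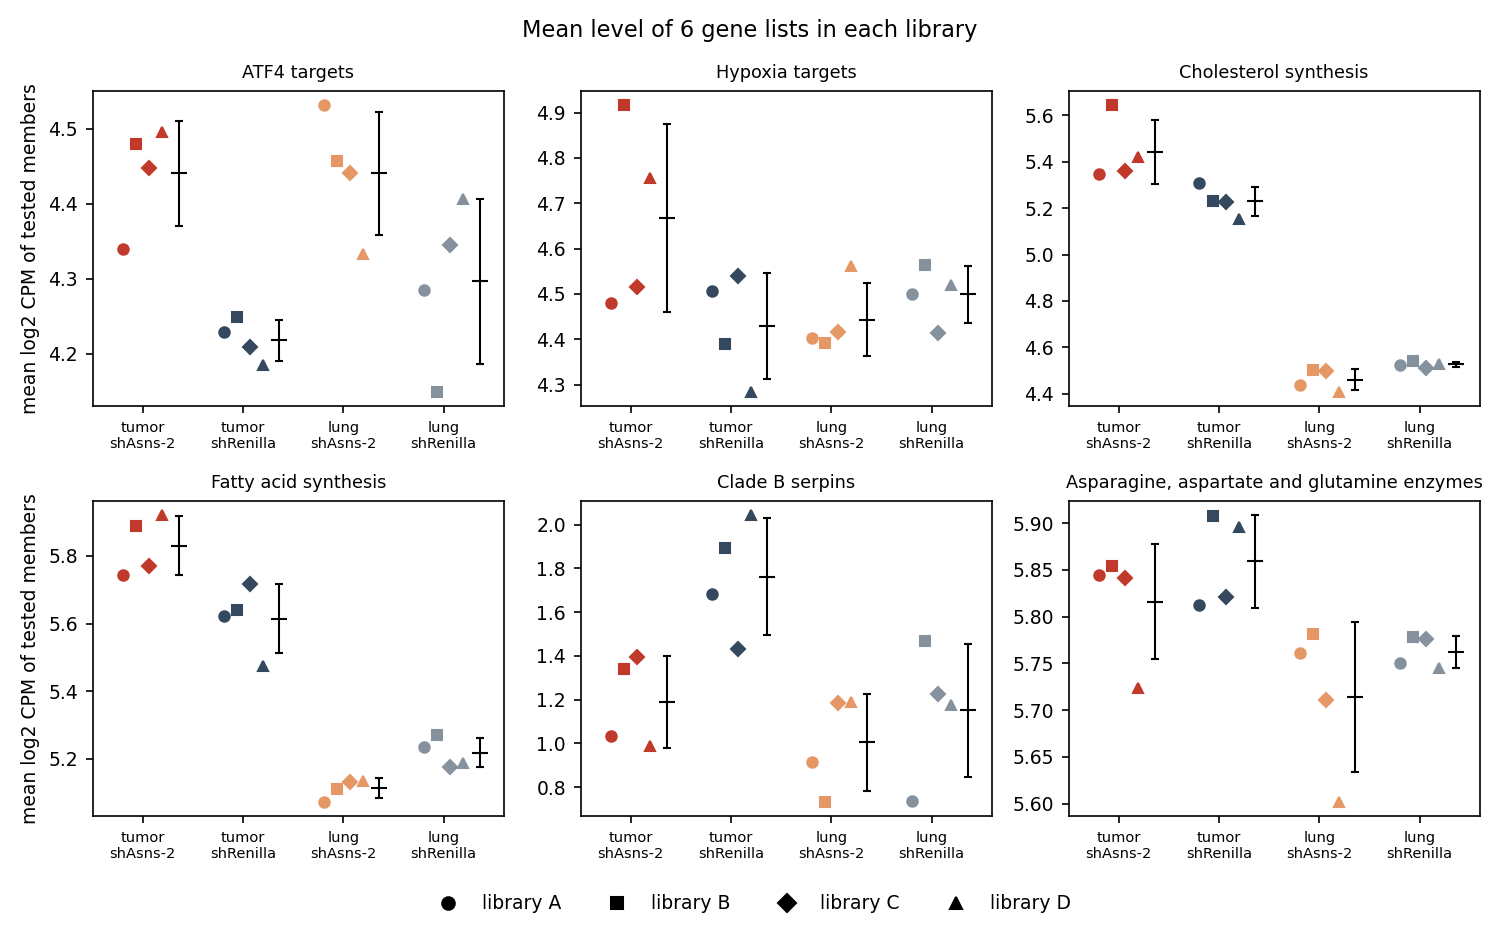
Mean log2 CPM over the tested members (vertical axes, not from 0) of 6 gene lists in each library of tumor shAsns-2, tumor shRenilla, lung shAsns-2 and lung shRenilla; symbols mark libraries A to D, and bars show mean ± SD (n = 4). In tumor the groups do not overlap for ATF4 targets, cholesterol synthesis, fatty acid synthesis and clade B serpins, and overlap for hypoxia targets and for asparagine, aspartate and glutamine enzymes.

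None of the listed epithelial and mesenchymal genes was called. Of 46 epithelial genes, 6 were higher (13.0%, against 4.02% of all genes) and 2 lower (4.35%, against 3.05%) at an unadjusted p under 0.05 (median 0.12). Dsc2, a desmosomal cadherin gene, was at 7.89, 11.7, 6.83 and 11.2 CPM in shAsns-2 and 5.45, 4.81, 5.57 and 2.98 CPM in shRenilla libraries (1.01 ± 0.23, adjusted p = 0.102), and Epcam, described above, Bspry, Jup, Spint1 and Krt8 were the others above. The lower members included Cd24a, with log2 fold changes of -0.27 to -0.20 across the alternative analyses. Cdh1 averaged 244 ± 48.0 and 226 ± 57.5 CPM (0.11 ± 0.17, unadjusted p = 0.522). The level of this list was 4.28 to 4.56 in shAsns-2 libraries, 4.37 to 4.40 in shRenilla A, B and C and 4.07 in shRenilla D, and without shRenilla B or D the count of 6 was 3. Of 44 mesenchymal genes 3 were higher (6.82%) and none lower: Vim (0.30 ± 0.12, unadjusted p = 0.0174), Twist1 (0.40 ± 0.17, unadjusted p = 0.0236) and Col6a1 (0.47 ± 0.22, unadjusted p = 0.0383). The count of 3 was 0 without shAsns-2 D or shRenilla D, 1 without shRenilla B and 5 without shRenilla C. Zeb1 (0.11) and Fn1 (-0.21) had unadjusted p of 0.263 or more.

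Few members of the core growth lists had an unadjusted p under 0.05, although most respiratory chain and ribosomal genes lay slightly below the controls. Of all genes tested, 52.7% lay above the controls. None of 72 respiratory chain subunits had an unadjusted p under 0.05 (67 below the controls, median -0.09), and 1 of 77 ribosomal proteins did, Rpl30 (68 below, median -0.09). In the lung libraries 46 of these 72 and 76 of these 77 were above the controls (medians 0.07 and 0.17). Of 39 mitosis and DNA replication genes 1 was higher, the proliferation marker Mki67 at 866, 799, 789.6 and 747 CPM in shAsns-2 and 604, 686, 655 and 628 CPM in shRenilla libraries (0.32 ± 0.10, adjusted p = 0.36). The 4 shAsns-2 values of Mki67 lay above all controls, while Rrm2 and Aurka of the same list were lower (median of the list 0.01). Unfolded protein response genes had 2 of 27 higher (7.41%, median 0.05) and NRF2 targets 2 of 29 lower (6.90%, median 0.02). Of 18 p53 targets 1 was higher (5.56%) and 3 lower (16.7%, against 3.05% of all genes), with a median of -0.04.

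Among signalling lists, 2 of 33 interferon-stimulated genes were higher (median 0.16). Of 35 cytokine and chemokine genes, Tnf (1.14) and Tnfaip2 (0.28) were higher and Ccl9 (-0.60) lower at an unadjusted p under 0.05 (median 0.04). AP-1 and immediate early genes had 1 higher and 1 lower of 28 (median -0.01), TGF-beta and YAP targets 2 lower of 24 (median -0.14), and autophagy and lysosome genes 1 higher and 2 lower of 35 (median -0.01). Of 7 carbonic anhydrases, Car5b (0.26) joined Car9. None of 19 genes of purine salvage and thioguanine handling had an unadjusted p under 0.05 (median -0.10). Among them Hprt, whose loss gives resistance to 6-thioguanine, averaged 595 ± 150.3 CPM in shAsns-2 and 637 ± 97.0 CPM in shRenilla libraries (-0.10 ± 0.16, unadjusted p = 0.555).

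The same hairpin pair was measured in cells labelled lung, in 8 libraries that share none with the tumor comparison. These 8 include the divergent lung libraries named above, shRenilla B and shAsns-2 D, and all lung values below include them. In the lung comparison edgeR called 0 genes (0%), although 1068 had an unadjusted p under 0.05 (8.46%), 372 higher (2.95%) and 696 lower (5.51%). Asns was at 44.5, 46.7, 51.3 and 35.8 CPM in lung shAsns-2 libraries A to D and 69.1, 53.1, 70.2 and 62.0 CPM in lung shRenilla libraries, again without overlap (-0.51 ± 0.16, unadjusted p = 0.00341). The difference between the tumor and lung changes of Asns was -0.67 ± 0.23 (unadjusted p = 0.00642, adjusted p = 0.972). For that difference edgeR called no gene (0%), while 599 genes (4.74%) had unadjusted p-values under 0.05. DESeq2 called 1 gene and limma 0.

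Cldn9 was higher at both sites. It averaged 1.66 ± 0.853 CPM in lung shAsns-2 and 0.644 ± 0.143 CPM in lung shRenilla libraries (1.37 ± 0.31, unadjusted p = 0.000146), and its change in tumor differed from that in lung by 0.02 (unadjusted p = 0.978). Serpinb6b (-0.41 ± 0.12, unadjusted p = 0.00242) and Serpinb9 (-0.26 ± 0.11, unadjusted p = 0.0263) were also lower in lung. Rab32 was at -0.45 in tumor and -0.43 in lung, Sgk1 at -0.40 and -0.35, and Arpc1a at 0.39 and 0.31.

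The other 4 genes that rose in tumor were near their controls in lung. Car9 was at 20.6, 20.9, 19.6 and 15.7 CPM in lung shAsns-2 and 20.5, 15.7, 16.2 and 13.8 CPM in lung shRenilla libraries (0.22 ± 0.21, unadjusted p = 0.321). The tumor change exceeded the lung change by 1.15 ± 0.30 (unadjusted p = 0.000826, adjusted p = 0.795). Htra3 averaged 1.51 ± 0.203 and 1.38 ± 0.374 CPM in lung, above both tumor groups, and its change differed by 1.98 ± 0.41 (unadjusted p = 4.46e-05, adjusted p = 0.281). Dmp1 (4.50 ± 1.22 and 4.41 ± 0.74 CPM) and 1810011O10Rik (40.8 ± 13.7 and 36.5 ± 2.93 CPM) had lung changes of 0.03 and 0.16.

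Across all 12625 genes the 2 changes correlated weakly (Pearson r 0.19, Spearman rho 0.21, a description across genes, which are not independent), and 57.8% of genes had the same sign. Of the 893 tumor genes with an unadjusted p under 0.05, 655 (73.3%) had the same sign in lung. At an unadjusted p under 0.05 at both sites, 96 genes agreed in direction, 44 higher and 52 lower, and 10 were opposite. In lung the groups did not overlap for 156 genes that were higher (1.24%) and 244 that were lower (1.93%). They failed to overlap at both sites for 26 genes in the same direction and for 0 in opposite directions.

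Genes with the same direction included Pck2 (0.46 in tumor and 0.52 in lung), Pdgfrl, a PDGF receptor-like gene (-0.82 and -0.77), the small GTPase genes Rab30 (-0.41 and -0.47) and Rnd3 (-0.37 and -0.38), and Clec5a, a myeloid lectin receptor gene at under 1 CPM in tumor (-1.57 and -1.66). These names, and the next, were chosen after their values were seen.

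Of the 10 opposite genes, 9 were higher in tumor and lower in lung. Amigo2, an adhesion molecule gene, was at 7.05, 9.05, 6.27 and 12.5 CPM in tumor shAsns-2 and 4.19, 2.57, 3.40 and 5.64 CPM in tumor shRenilla libraries (1.15 ± 0.24). In lung it averaged 33.8 ± 8.53 and 46.4 ± 15.0 CPM (-0.46 ± 0.21). The difference of changes, 1.61 ± 0.32, had an unadjusted p of 2.9e-05 and an adjusted p of 0.281, shared with Htra3 as the lowest of that test. Adm (0.59 in tumor and -0.57 in lung) and the secreted matricellular protein gene Spp1, or osteopontin (0.53 and -0.54), followed. Spp1 averaged 1546 ± 207 CPM in tumor shAsns-2 and 1070.1 ± 336 CPM in tumor shRenilla libraries, and 3853 ± 489 CPM in lung shAsns-2 and 5621 ± 1270.1 CPM in lung shRenilla libraries.

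**Figure D4:**
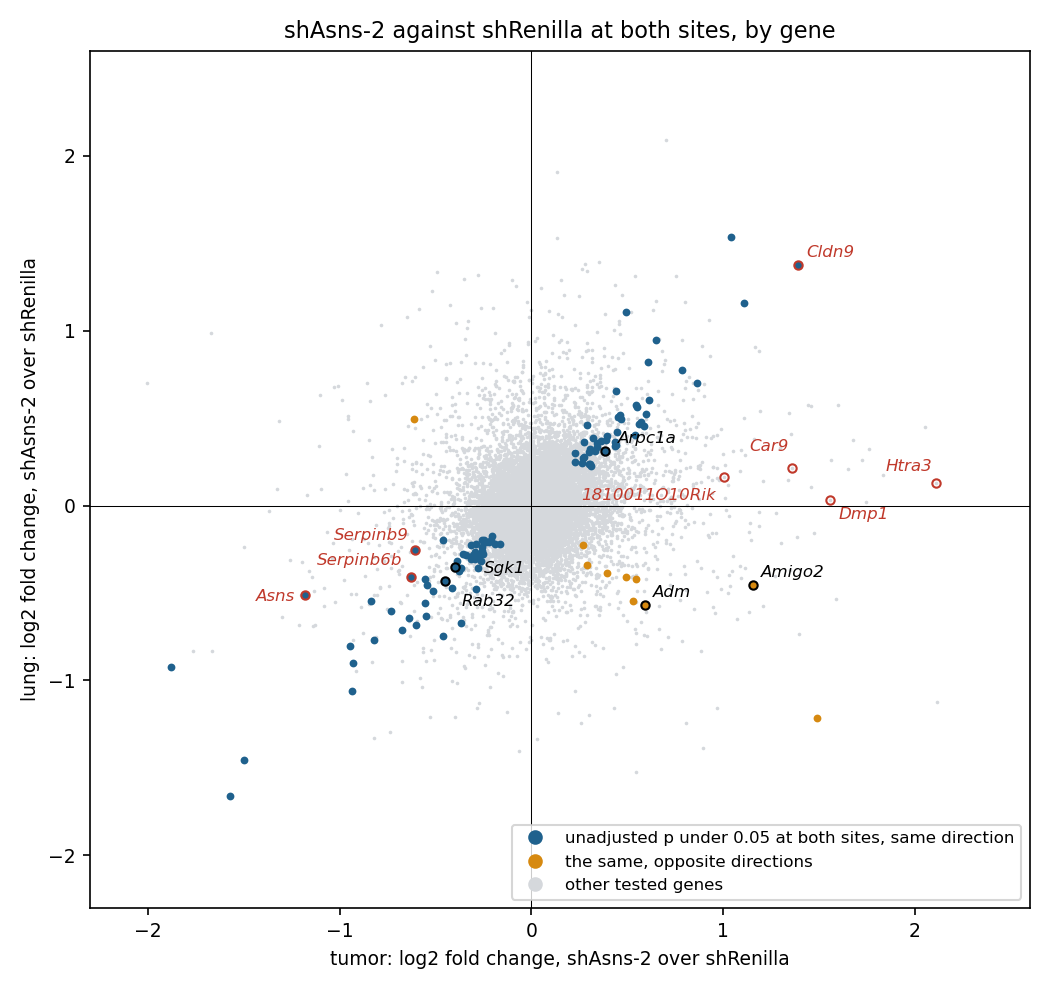
Log2 fold change of shAsns-2 over shRenilla in tumor (horizontal axis) and lung (vertical axis) libraries, 1 point per tested gene, with 1 gene outside the plotted range; blue and orange mark an unadjusted p under 0.05 at both sites with the same or opposite direction, red rings and names the 8 called genes, and black rings 5 other genes described in the text. Cldn9 and Asns lie off both axes in the same direction, while Car9, Htra3, Dmp1 and 1810011O10Rik lie close to the horizontal axis.

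By list, ATF4 targets had the same median at both sites, 0.17 in tumor and 0.17 in lung, where 4 of 37 were higher (2.95% of all genes) and 1 lower at an unadjusted p under 0.05. Chac1 was at 0.54 in tumor and 0.40 in lung, and Aldh1l2 at 0.59 and 0.46. Medians of the other leading lists had opposite signs at the sites: hypoxia targets 0.15 in tumor and -0.02 in lung, cholesterol synthesis 0.24 and -0.06, and fatty acid synthesis 0.13 and -0.13. For 8 of the 36 hypoxia targets the difference between sites had an unadjusted p under 0.05 (22.2%, against 4.74% of all genes), including Slc2a1 (0.77 ± 0.23, unadjusted p = 0.00199) and Adm. Fads1 (0.57 ± 0.15, unadjusted p = 0.000708) led the 5 of 13 fatty acid synthesis genes. Of 35 cytokines and chemokines 1 was lower in tumor and 16 were lower in lung (5.51% of all genes), with medians of 0.04 in tumor and -0.31 in lung. Clade B serpins were at -0.50 in tumor and -0.28 in lung.

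Beside the libraries labelled shAsns-1, which use the same tumor shRenilla controls, the called genes did not follow Asns in 1 direction. Shared controls can by themselves give equal signs, so an equal sign is not independent support. Htra3 (2.11 in shAsns-2 and 3.11 in the libraries labelled shAsns-1), Dmp1 (1.56 and 3.04), 1810011O10Rik (1.01 and 1.37), Serpinb9 (-0.61 and -1.39) and Serpinb6b (-0.63 and -0.99) had the same sign with both labels. Asns (-1.18 and 1.04) and Cldn9 (1.39 and -0.83, adjusted p = 0.0161 for the label shAsns-1) had opposite signs. Car9 was at 1.36 and 0.44, the second with an adjusted p of 0.116. The ATF4 targets Chac1 (-0.07), Pck2 (-0.34) and Gpt2 (-0.47) were not above the controls there. They are single members, and the ATF4 list as a whole was not counted for that label.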

How the data were processed

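RNA-seq was measured in 24 libraries, 4 for each of 6 groups of site and hairpin. The authors deposited raw read counts per gene symbol (23478 symbols) in 1 table, used here unchanged. Reads were aligned to mm10 with Bowtie2 and counted with HTSeq, per the submitters' processing notes, without versions. The annotation, the strand setting and filters are not given in the sources used here, so reads of near copies and of overlapping genes may have been split or dropped. Per the labels' protocols, RNA was extracted with Trizol and libraries were made with the NuGEN Ovation RNAseq V2 kit. Column names were matched to the sample descriptions, and no per-sample column was left unused.

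Counts were fitted with edgeR 4.0.16 in R 4.3.3, with 1 mean per group over all 24 libraries (18 residual degrees of freedom), TMM scaling, the filterByExpr filter (12625 genes kept) and a robust quasi-likelihood test. The biological coefficient of variation was 14.9%. Each standard error was obtained by dividing the size of the log2 fold change by the root of its F statistic. Log2 CPM used a prior count of 2, and group levels are means and SD of CPM. Total counts were 8.48 to 38.0 M per library (median 28.7 M). In the 8 tumor libraries compared, 4.93 to 5.38% of counts fell on the 10 most abundant genes. The fit was also run on simulated counts, drawn with the dispersions estimated from these data and with known changes inserted. Those counts held no divergent libraries and no other differences between groups, so that run does not cover how such libraries move the calls.

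The comparison, the 25 gene lists and 9 marker lists were chosen with earlier results of these data known. Named genes were Asns, every called gene, the 12 of lowest p in each direction among uncalled genes with a mean log2 CPM of at least 3 and no overlap, the called or up to 4 leading members of each list, all members of the asparagine list and a few set genes such as Hprt and Atf4. Other members with an unadjusted p under 0.05 and the genes named for both sites were added after their values were seen. Of 145 genes named by rule, 143 were matched to GENCODE M21 (GRCm38). Promoters came from RefSeq (GRCm38.p6), which covered 9309 of the 12625 tested genes. The alternatives tried were a test with DESeq2 1.42.0, edgeR on DESeq2's scaling, limma 3.58.1 (voom, weighted libraries), omission of the low-count filter, fits on the compared or on the tumor libraries alone, 2 lung libraries left out, thinned counts, the replicate letter in the model, an adjusted p under 0.1 and each of the 8 libraries left out in turn. Leaving out shAsns-2 D and shRenilla C together was added after the data were seen. Figures were drawn with matplotlib 3.10.9.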

Additional observations from a re-analysis of the deposited data

Results flagged for a closer look

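A library was singled out where its gap to the nearest of the other 3 in its group exceeded Dixon's limit for 4 values, as a share of the group's range. This was found in 24 of 342 groups of 4 values (7.02%), and chance gives about 5%. No gene or list was singled out on other grounds, and the cause was not tested for any of these values.

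Tumor shAsns-2 D held 13 of the 24. Its values were low for the serpin Serpinb9 (23.9 CPM, others 28.4 to 28.9), the tRNA synthetases Farsb (98.5 CPM) and Rars (274 CPM), the ribosomal protein Rpl30 (1.77 CPM), the growth factor Tgfb2 (10.3 CPM) and the asparagine, aspartate and glutamine list (mean log2 CPM 5.72). They were high for Olfm1 (26.8 CPM), the folate enzyme Mthfd1l (110.4 CPM), Srebf1 (33.2 CPM, others 16.1 to 18.2), Twist1 (38.4 CPM, others 21.3 to 22.6), Col6a1 (6.68 CPM), the proline synthesis enzyme Aldh18a1 (48.0 CPM) and the cytokine list (4.00). In shAsns-2 B, Hmgcs1 (268 CPM, others 170.4 to 182) and Slc25a13 (93.5 CPM) were high. Plek2 was high in shAsns-2 C (36.7 CPM) and Rpl37a low in shAsns-2 A (384 CPM).

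In shRenilla C, Slc7a11, the cystine transporter gene, was low (27.7 CPM), and Scd2 (466 CPM), Vim (3153 CPM) and Gfpt1 (46.7 CPM) were high. In shRenilla D the epithelial list (4.07), the autophagy and lysosome list (4.68) and the TGF-beta and YAP list (5.81) were low.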

How the results depend on the processing

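The count of 8 called genes was 8 with DESeq2 size factors, 11 without the filter and 7 with thinned counts. It was 50 with DESeq2, 14 with limma, 3 with only the compared libraries in the fit, 5 with only the 12 tumor libraries, 50 with lung libraries shAsns-2 D and shRenilla B left out, 17 at an adjusted p under 0.1, 4 without shAsns-2 D and shRenilla C, and 3 to 12 without each library in turn. By direction, DESeq2 and the fit without the 2 lung libraries each gave 40 higher and 10 lower, and limma 5 higher and 9 lower. The letters A to D did not pair the libraries: the deviations of same-lettered libraries correlated at 0.07, -0.18, -0.26 and -0.41, and with the replicate block 5 genes were called. The change of Asns was -1.19 (adjusted p = 0.0502) with only the compared libraries and stayed called in the other 17 alternatives (adjusted p at the lowest 2.58e-08). For the difference between sites DESeq2 called 1 gene and each other alternative that gives this difference 0; the fit on the 12 tumor libraries cannot give it. None of the 84 named genes with an unadjusted p under 0.05 changed sign in an alternative. A sign change in at least 1 alternative was seen for 15 of the 61 other named genes, such as Atf4, Ddit3, Hprt and Cdh1, and for 12 of the 25 list medians. The cause of these shifts was not tested. Among values for single genes and lists, 3670 kept their side of the threshold or, where none applied, stayed within the spread between libraries or near the count, 215 moved further, 58 passed it newly and 48 no longer passed it. The smallest library held 8.48 M counts, and genes under 1 CPM, such as Htra3, rest on a few reads in it.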
